A study of Mus musculus with 12 samples.

Results

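The mRNA of G protein-coupled receptors that are named Gpr plus a number was measured on NimbleGen arrays in 3 mouse cell lines. The members were all mouse genes whose symbol is Gpr, a number and at most 1 letter. The reference held 76 such symbols, and 62 of them had probes, 3 each, among 17277 genes with a symbol. The other 14, among them Gpr15, Gpr25, Gpr31a, Gpr31c, Gpr39, Gpr52, Gpr61, Gpr62, Gpr155, Gpr160, Gpr161, Gpr165 and Gpr179, were not analysed here.

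AtT20 is a pituitary tumour line, BV2 a microglial line and N18 a neuroblastoma line. Each was grown in DMEM with serum, received no treatment, and gave 4 biological replicates, called plates here, with 1 array hybridised per plate (12 arrays in all). By the study's methods, the culture of BV2 was meant to favour a resting and not an activated state. All plates of a line came from that 1 immortalized line, so the spread between plates is the spread of cultures and arrays and not of animals. Each plate gave a bulk extract, in which a low level in every cell and a high level in few cells cannot be told apart.

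A Gpr number is a cloning label that records neither ligand nor function. Receptors of this name were found by sequence similarity, and many of them still lack an agreed ligand or were paired with one only after they were named. Most couple to heterotrimeric G proteins at the cell surface, where acid, fatty acids, lipid messengers or peptides can reach them, while several carry the name although they reside in the Golgi or in lysosomes. Immune cells are known for receptors of metabolites and acid, and neurons for receptors that signal through cyclic AMP without an added ligand.

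To give a gene's level on a plate, its 3 probes were averaged, put on the log2 scale and set relative to 10 seminal vesicle proteins of that plate, genes that the study's methods take as not expressed in these lines. The related Svs3b, which was not among those 10, had levels above the threshold in each line (0.44 ± 0.11 for AtT20, 1.09 ± 0.17 for BV2 and 1.04 ± 0.13 for N18), and the highest of the 10 was Svs5 (0.34 ± 0.13, 0.45 ± 0.16 and 0.65 ± 0.12). A gene was called above the threshold in a line where its mean level over the 4 plates exceeded 2 SD of those control proteins. That threshold, averaged over the plates, was 0.37 ± 0.11 (SD, n = 4) for the plates labelled AtT20, 0.56 ± 0.15 for BV2 and 0.74 ± 0.10 for N18. Genes differ in how well their probes bind, so a level is compared only with the same gene in other lines.

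BV2 plates carried the macrophage identity genes, with a level of 4.70 ± 0.39 for the growth factor receptor Csf1r and of 4.06 ± 0.29 for the transcription factor Spi1. N18 plates carried the sympathetic neuroblast factor Phox2a at 2.15 ± 0.16 and the growth cone protein Gap43 at 5.05 ± 0.17. The plates labelled AtT20 did not carry the corticotroph set, since only Pitx1 (0.47 ± 0.20) of 6 markers was called there, while the hormone precursor Pomc (0.29 ± 0.26), its factor Tbx19 (0.02 ± 0.06) and the prohormone convertase Pcsk1 (0.14 ± 0.05) stayed below the threshold. Markers of this set were also called in the other lines, 2 of the 6 in BV2 and 3 in N18, with Tbx19 at 1.43 ± 0.16 and 1.46 ± 0.07, Pomc at 0.67 ± 0.12 in BV2 and the hormone receptor Crhr1 at 3.16 ± 0.16 in N18. Of 11 neuroblastoma markers, 6 were called on AtT20-labelled plates (where 35.0% of all features were), 6 in BV2 (53.3%) and 9 in N18 (55.4%). On the AtT20-labelled plates they included the neurofilaments Nefl (4.46 ± 0.48) and Nefm (2.87 ± 0.69), the transcription factor Hand2 (2.03 ± 0.93) and the neuronal tubulin Tubb3 (2.02 ± 0.88). Their array values were also squeezed together, with an interquartile range of 0.38 to 0.78 log2 units per array against 1.28 to 1.73 in BV2 and 1.91 to 2.21 in N18. These plates are therefore named by their label, and every difference that involves them was computed on 3 scales.

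Of the 62 members, 29 were called in at least 1 line and 33 in none. On the plates labelled AtT20, 11 members (17.7%) were called, where 35.0% of all features on the array were. The BV2 count was 18 members (29.0%), against 53.3% of all features. In N18 it was 21 members (33.9%), against 55.4%. The share of members called was thus below the background in each line. Most uncalled members lay close to the control proteins, and 28 of 51, 20 of 44 and 23 of 41 of them in the lines AtT20, BV2 and N18 were at or below the control mean. The median level over the 62 members was 0.04, 0.32 and 0.23 in the 3 lines, beside 0.16, 0.64 and 0.93 over all features.

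The 29 members fell into 7 patterns over the lines, which were not counted over all features. Gpr75, Gpr85, Gpr89, Gpr137 and Gpr157 were called in all 3 lines. Gpr31b, Gpr50, Gpr84, Gpr107, Gpr108, Gpr119, Gpr137b and Gpr146 were among those called in BV2 and N18. Gpr1, Gpr35 and Gpr65 were called in BV2 only, and Gpr3, Gpr12, Gpr19, Gpr20, Gpr153 and Gpr173 in N18 only. Gpr6, Gpr135, Gpr158 and Gpr182 were called only on the plates labelled AtT20, which shared Gpr27 with BV2 and Gpr162 with N18.

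**Figure D1:**
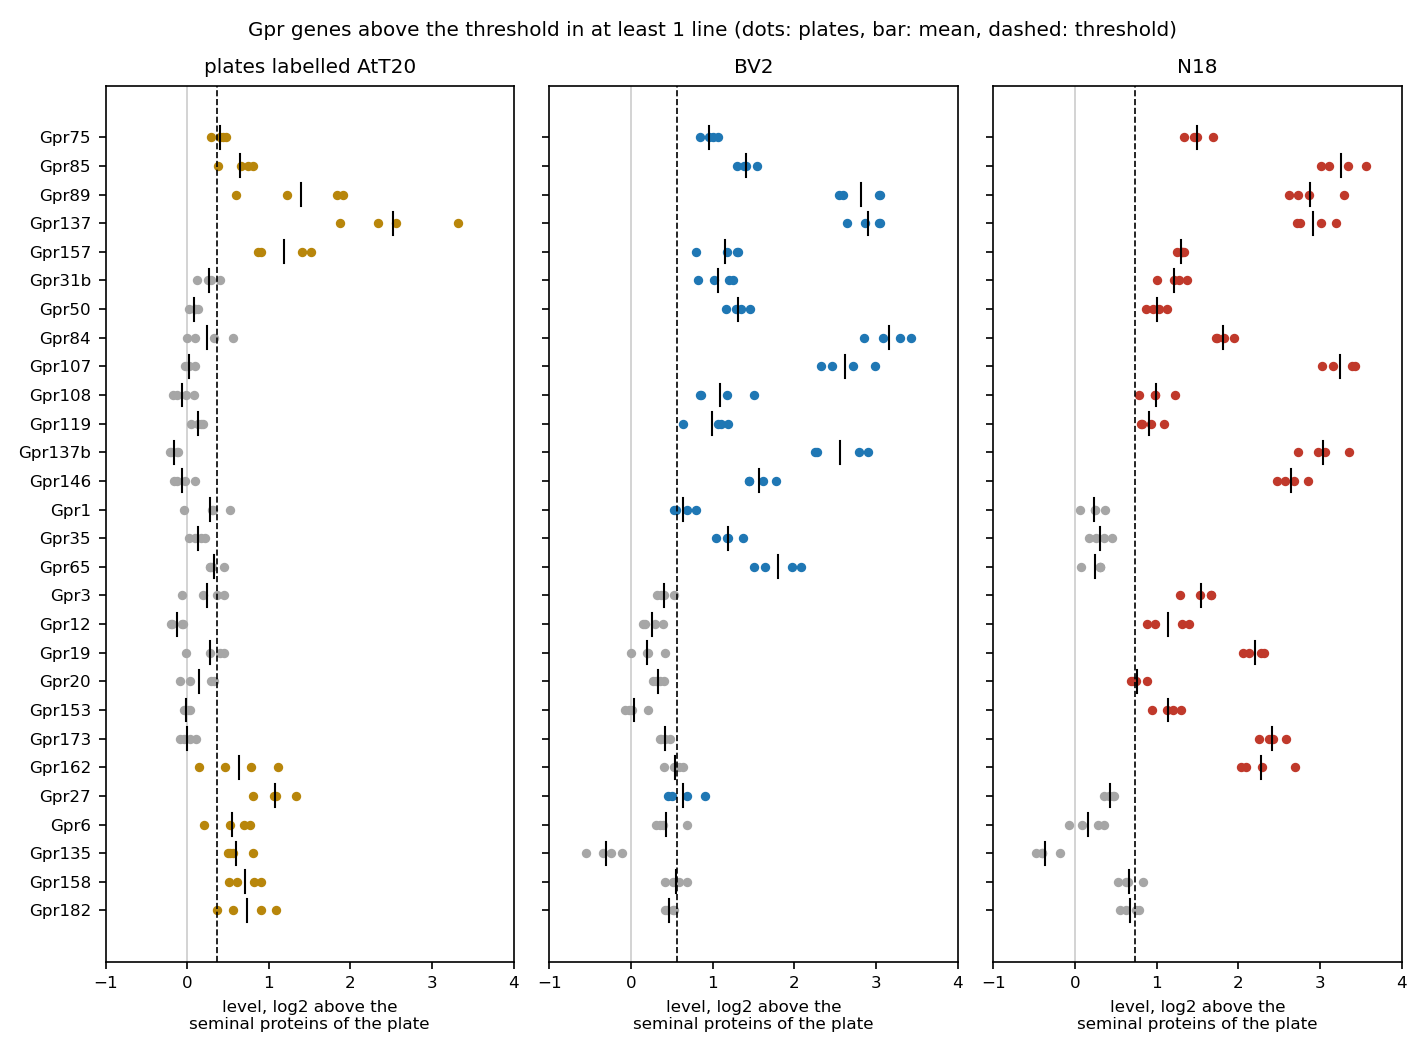
Level of 28 of the Gpr genes called in at least 1 line, in log2 units above the seminal proteins of the plate, with 1 dot per plate, a black bar for the mean of 4 plates and a dashed line for the threshold of the line. Coloured dots mark a gene called in that line and grey dots 1 that was not. Gpr107 and Gpr137b stand near 0 on the AtT20-labelled plates and above 2 on all plates of BV2 and N18, and Gpr19 and Gpr173 stand above 2 in N18 alone.

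Among receptors of acid, lipids and metabolites, Gpr84 and Gpr65 stood out in BV2. Gpr84, a receptor of medium-chain fatty acids in macrophages and microglia, had levels of 3.43, 2.85, 3.08 and 3.29 on the BV2 plates and of 1.95, 1.83, 1.74 and 1.73 on the N18 plates. Its levels on the plates labelled AtT20 were 0.00, 0.56, 0.09 and 0.33. Every BV2 plate was above every N18 plate, and the AtT20-labelled plates lay lower still, with a mean below their threshold. In N18, where Gpr84 was called on all 4 plates, 2 of 8 microglia markers were also called, beside 55.4% of all features. These were Tyrobp at 1.12 ± 0.14 and Itgam at 0.80 ± 0.07, while Csf1r was at -0.06 ± 0.12, Adgre1 at -0.41 ± 0.09 and Spi1 at 0.60 ± 0.08. The mean level over the 8 markers ran from 0.28 to 0.40 over the N18 plates, from 3.19 to 3.83 in BV2 and from -0.03 to 0.10 for AtT20. Their part in the Gpr84 level of N18 was not tested.

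Gpr65, a proton-sensing receptor of immune cells that raises cyclic AMP, had levels of 1.97, 1.50, 1.64 and 2.08 in BV2, with all 3 probes above the threshold. In N18 its levels were 0.30, 0.31, 0.07 and 0.30, and on the plates labelled AtT20 0.28, 0.45, 0.28 and 0.30. The BV2 plates did not overlap with those of the other lines. Gpr4 and Gpr132, also of the proton-sensing group, were called in no line, with levels from -0.19 to 0.28.

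Gpr35, for which the tryptophan product kynurenic acid was proposed as a ligand, was at 1.19, 1.04, 1.37 and 1.17 in BV2 and at 0.36, 0.45, 0.26 and 0.17 in N18. The BV2 call rested on its first probe (2.12 ± 0.23), which was also above the threshold in N18 (1.09 ± 0.18) although the gene as a whole was not. Gpr31b, related to the human receptor of a lipoxygenase product, was at 1.07 ± 0.19 in BV2 and 1.21 ± 0.16 in N18. Gpr119, known from pancreas and gut as a receptor of fatty acid amides, was at 0.99 ± 0.25 and 0.91 ± 0.13. Neither differed between BV2 and N18 with all 3 scalings. Gpr18, Gpr55 and Gpr183, the oxysterol receptor, passed in no line, and so 4 of the 7 measured members of this group were called in BV2, 3 in N18 and none on AtT20-labelled plates, beside 53.3%, 55.4% and 35.0% of all features.

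The P2Y12-like group, which holds the microglial lysophosphatidylserine receptor Gpr34 along with Gpr17, Gpr82, Gpr171 and Gpr174, gave no call in any line. Of all features, 35.0%, 53.3% and 55.4% were called for AtT20, BV2 and N18. Levels of the 5 measured members of the group ran from -0.73 to 0.50 in BV2. Gpr34 itself had a level of -0.30 ± 0.08 there, below the control mean on all 4 plates, although 7 of 8 microglia markers were called on the same plates.

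In the chemoattractant-like group, Gpr1, a receptor of the adipokine chemerin, was called in BV2 at 0.68, 0.55, 0.79 and 0.53, where 1 plate lay under the threshold of its own array, and the call was lost in 4 of 8 alternative settings. Gpr75, for which a vasoactive eicosanoid was proposed as a ligand, was at 1.49 ± 0.15 in N18, 0.96 ± 0.09 in BV2 and 0.40 ± 0.08 on AtT20-labelled plates. All 3 probes carried it in BV2 and N18 and 1 on the plates labelled AtT20, where its level passed the threshold of 0.37 by less than 1 SD, on 3 of 4 plates, and was lost in 7 of 8 alternative settings. Gpr182, an atypical chemokine receptor of endothelium, passed only on the plates labelled AtT20 (0.56, 1.09, 0.36 and 0.91) and on 1 probe, and its N18 level of 0.67 ± 0.11 was the nearest under the threshold of that line. Gpr33 was called nowhere.

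N18 called 2 of 3 constitutively active cyclic AMP receptors, where 55.4% of all features were called. Gpr3, Gpr6 and Gpr12 form a family that keeps adenylyl cyclase active without an added ligand. Gpr3 had levels of 1.53, 1.66, 1.29 and 1.66 on the N18 plates against 0.37, 0.32, 0.52 and 0.40 in BV2, and all 3 of its probes were above the threshold in N18. Gpr12 was at 1.31, 1.40, 0.88 and 0.98 in N18 against 0.17, 0.39, 0.15 and 0.29 in BV2. All N18 plates were above all BV2 plates for both genes. Gpr6 followed another pattern, with 0.77, 0.70, 0.20 and 0.53 on AtT20-labelled plates, of which plate 3 was under its threshold, and means of 0.43 ± 0.17 in BV2 and 0.16 ± 0.19 in N18 below theirs.

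Gpr27, Gpr85 and Gpr173 are the super-conserved receptors expressed in brain (SREB), orphans whose protein sequence has hardly changed among vertebrates. Gpr85 was called in every line, at 3.34, 3.56, 3.01 and 3.11 in N18, at 1.54, 1.30, 1.38 and 1.41 in BV2, and at 0.74, 0.81, 0.38 and 0.66 on plates labelled AtT20. Gpr173 was called only in N18, where its levels were 2.43, 2.58, 2.25 and 2.37 against means of 0.41 ± 0.05 in BV2 and 0.00 ± 0.09 on plates labelled AtT20. By its mean level Gpr27 ran the other way, at 1.33, 1.09, 0.80 and 1.06 on AtT20-labelled plates, 0.91, 0.45, 0.50 and 0.68 in BV2 and 0.43 ± 0.06 in N18. Its probes disagreed on this order. For AtT20, BV2 and N18 the first read 0.29 ± 0.25, -0.29 ± 0.31 and -0.82 ± 0.25. The second read 1.68 ± 0.13, 0.72 ± 0.23 and -0.02 ± 0.36, but the third 0.90 ± 0.38, 1.11 ± 0.31 and 1.29 ± 0.17. Each line thus called 2 of the 3 SREB genes, with Gpr85 common to all of them. Of all features, 35.0%, 53.3% and 55.4% were called for AtT20, BV2 and N18. The BV2 call of Gpr27 was kept in 4 of 8 alternative settings.

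Receptors related to the peptide and amine receptors were the groups with most members, and few of them were called. Gpr19, a brain-enriched orphan, was at 2.28, 2.32, 2.13 and 2.06 in N18 and at 0.41, 0.00, 0.20 and 0.21 in BV2. Gpr146, studied in liver for cholesterol, was at 2.57, 2.85, 2.47 and 2.68 in N18 and 1.57 ± 0.16 in BV2, on the same single probe in both (3.99 ± 0.17 and 2.75 ± 0.19). Gpr50, the melatonin-related receptor, was called in BV2 (1.31 ± 0.12) and N18 (1.00 ± 0.11). Gpr20 passed in N18 by a narrow margin (0.88, 0.68, 0.71 and 0.75). That call rested on 1 of its 3 probes (1.51 ± 0.23) and was kept in 2 of 8 alternative settings. The other 10 of the 14 measured peptide-related members were called in no line. For AtT20, BV2 and N18 the group had 0, 2 and 4 calls, beside 35.0%, 53.3% and 55.4% of all features.

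Of the 9 measured amine-like members, 2, 0 and 2 were called for AtT20, BV2 and N18, beside 35.0%, 53.3% and 55.4% of all features. Those called in N18 were Gpr162 and its paralog Gpr153. Gpr162 was at 2.29, 2.70, 2.09 and 2.03 there, 0.54 ± 0.11 in BV2, and at 0.78, 1.11, 0.15 and 0.46 on the plates labelled AtT20, where plate 3 was under its threshold. Gpr153 was at 1.13, 0.94, 1.20 and 1.30 in N18 and near the controls elsewhere (0.03 ± 0.13 in BV2). Gpr135 was called only on the plates labelled AtT20 (0.56, 0.80, 0.50 and 0.52), on 1 probe. In the class C group, which is built like the metabotropic glutamate receptors, Gpr158 passed on the plates labelled AtT20 (0.51, 0.82, 0.61 and 0.90). Gpr158 was at 0.55 ± 0.11 in BV2 and 0.66 ± 0.13 in N18, just under both thresholds.

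Several proteins carry the Gpr name but act inside the cell. Gpr107, implicated in endosome to Golgi traffic, was at 2.99, 2.46, 2.32 and 2.72 in BV2, 3.39, 3.43, 3.16 and 3.02 in N18, and 0.09, 0.00, -0.03 and 0.02 on plates labelled AtT20. Gpr137b, a lysosomal membrane protein, was at 2.90, 2.28, 2.25 and 2.79 in BV2, 3.06, 3.36, 2.73 and 2.98 in N18, and -0.16 ± 0.05 on plates labelled AtT20. Both genes were thus close to or below the control mean on each AtT20-labelled plate. Gpr89, a Golgi anion channel needed for acidification, was called in all lines (1.39 ± 0.61, 2.81 ± 0.27 and 2.88 ± 0.30 for AtT20, BV2 and N18), but on the plates labelled AtT20 on only 1 of its 3 probes. Gpr108, the Golgi paralog of Gpr107, was at 1.09 ± 0.31 in BV2 and 0.99 ± 0.18 in N18. Gpr137, the lysosomal paralog of Gpr137b, was called in all lines (2.52 ± 0.61, 2.90 ± 0.19 and 2.92 ± 0.23). Of the 8 measured members of this group, 5 were called in BV2, 5 in N18 and 2 on AtT20-labelled plates, beside 53.3%, 55.4% and 35.0% of all features. The uncalled ones were Gpr137c, the melanosomal Gpr143 and Gpr180.

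The 3 probes of a gene did not always move together between lines. Gpr157, a Gq-coupled receptor of cilia on neural progenitors, was called in all 3 lines (1.18 ± 0.33, 1.15 ± 0.24 and 1.30 ± 0.04 for AtT20, BV2 and N18). Its first probe read -0.05 ± 0.33 on AtT20-labelled plates, 1.84 ± 0.28 in BV2 and 2.12 ± 0.04 in N18, while its last read 2.13 ± 0.52, 0.74 ± 0.17 and 0.63 ± 0.05. The probes thus ordered the lines in opposite ways. The probes of Gpr137 also parted, with its first probe above the threshold only on the plates labelled AtT20 (1.70 ± 0.69) and its second only in BV2 and N18 (2.08 ± 0.22 and 1.53 ± 0.18). Calls that rested on 1 probe numbered 4 of 11 for AtT20, 3 of 18 for BV2 and 4 of 21 for N18. How often this held over all called features was not counted.

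**Figure D2:**
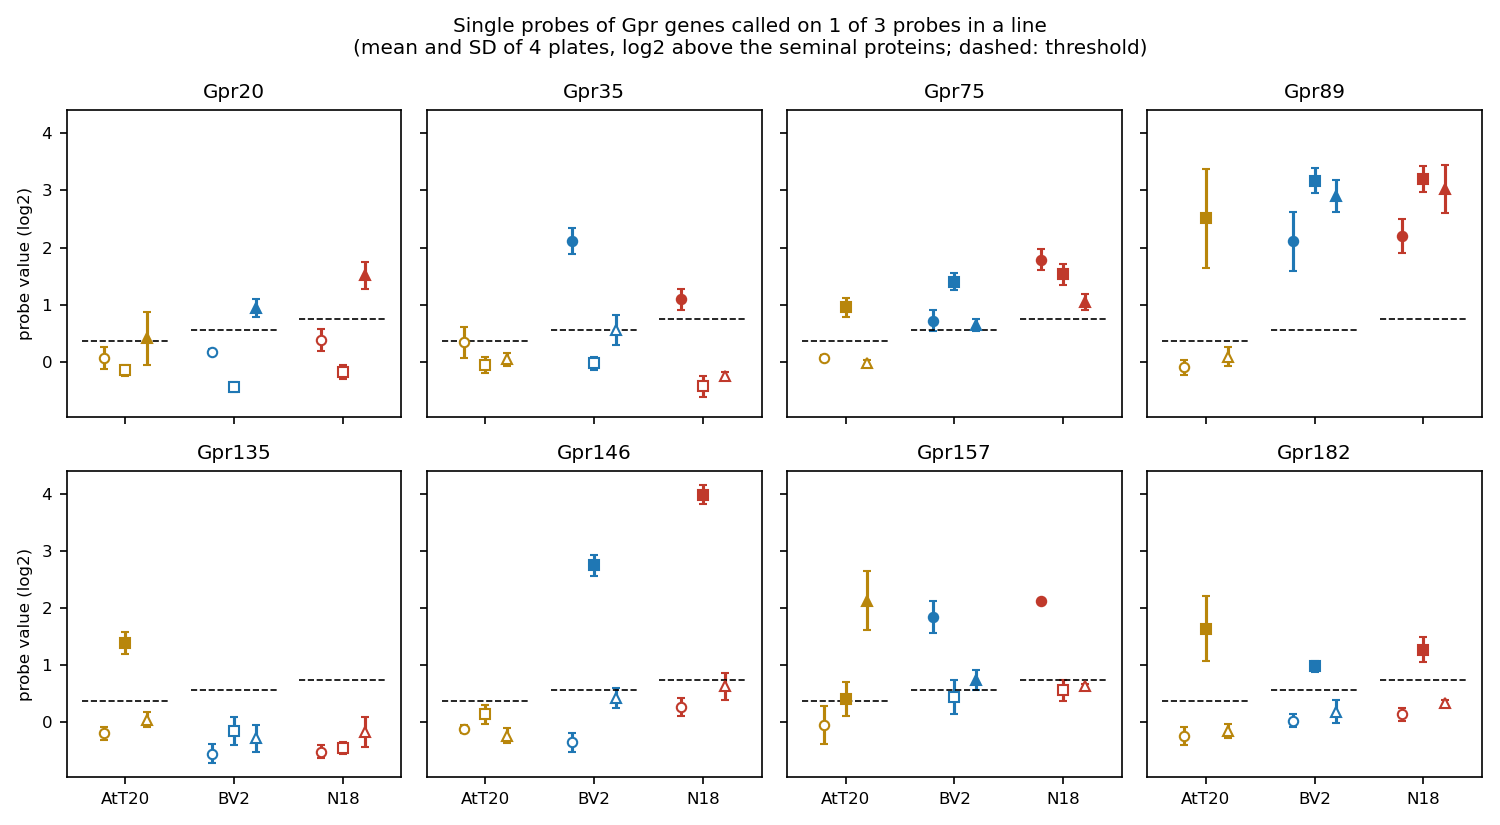
Values of the 3 probes (numbered in order of their names, as circle, square and triangle) of 8 Gpr genes that were called on 1 probe in at least 1 line, as mean and SD of 4 plates in log2 units above the seminal proteins, with dashed lines for the thresholds and filled symbols for probes above them. For Gpr146 the same probe carries the call in BV2 and N18, whereas for Gpr157 the first probe leads in BV2 and N18 and the last on the AtT20-labelled plates.

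Members were then compared between lines on quantile-normalized log2 values of all 25128 features, with limma on all 12 arrays and Benjamini-Hochberg adjustment over all features. Here the values are differences and not levels. In N18 against BV2, 25 members passed, where 40.9% of all features did. Of these, 9 members were higher in N18, where 19.0% of all features were, and 16 were higher in BV2, where 21.9% were. The balance moved with the scaling, to 19 against 13 when values were taken relative to the seminal proteins and to 14 against 6 with no normalization between arrays. With all 3 scalings, 9 members passed as higher in N18, beside 18.7% of all features, and 5 as higher in BV2, beside 7.16%. The median difference was -0.08 over the members and -0.06 over all features, and the other scales moved the median of all features to 0.18 and 0.15.

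The members higher in BV2 on every scale and called there were Gpr84, Gpr65 and Gpr35. Gpr84 was 1.82 ± 0.16 (SE) log2 units lower in N18 than in BV2 by quantile normalization (limma adjusted p = 1.36e-07) and 1.35 lower relative to the seminal proteins. Gpr65 differed by -1.51 ± 0.11 (limma adjusted p = 1.39e-08), at least 2.0-fold higher in BV2 when N18 was set at its threshold. Gpr35 differed by -0.96 ± 0.12 (limma adjusted p = 3.73e-06), at least 1.3-fold higher in BV2. Each of the 3 genes had 4 BV2 plates above all 4 N18 plates on both scales. Such separation did not set these 3 genes apart, as N18 and BV2 did not overlap for 36 of the 62 members after quantile normalization. It was not counted over all features.

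The members higher in N18 on every scale and called there numbered 8. Gpr19 differed by 1.27 ± 0.14 (limma adjusted p = 1.23e-06), Gpr173 by 1.26 ± 0.12 (3.19e-07), Gpr85 by 1.12 ± 0.11 (3.61e-07) and Gpr162 by 1.02 ± 0.15 (4.74e-05). With BV2 set at its threshold, Gpr173 was at least 2.1-fold, Gpr162 at least 2.0-fold and Gpr19 at least 1.9-fold higher in N18. Smaller differences were those of Gpr153 (0.63 ± 0.12, limma adjusted p = 0.000344), Gpr3 (0.60 ± 0.17, 0.00861), Gpr146 (0.49 ± 0.12, 0.0037) and Gpr12 (0.40 ± 0.12, 0.0126). All N18 plates were above all BV2 plates for these 8 genes. Relative to the seminal proteins the same differences were larger, from 0.89 for Gpr12 to 2.00 for Gpr173.

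The 11 further members higher in BV2 passed with quantile normalization alone or with it and 1 other scale. They included Gpr50 (-0.59 ± 0.12), Gpr137 (-0.58 ± 0.17), Gpr89 (-0.56 ± 0.12) and Gpr1 (-0.51 ± 0.16), with limma adjusted p-values from 0.000552 to 0.0174. Relative to the seminal proteins the difference of Gpr89 was 0.07 and that of Gpr137 was 0.02, so that neither had a direction that held on every scale. Gpr22, Gpr141 and Gpr152 passed with all 3 scalings although no line had a level above its threshold, and no fold is given for them.

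**Figure D3:**
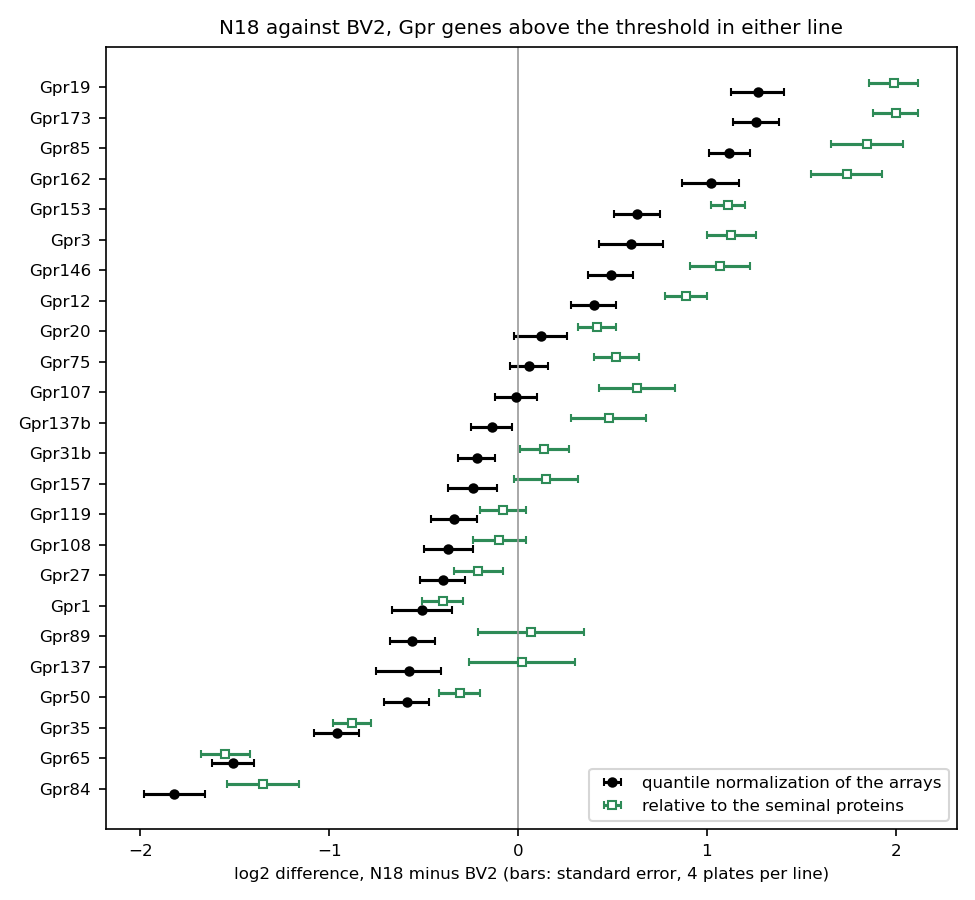
Difference between N18 and BV2 in log2 units, with bars for the standard error (4 plates per line), for Gpr genes called in either line, after quantile normalization (black) and relative to the seminal proteins (green). Gpr84, Gpr65 and Gpr35 lie to the left and Gpr19, Gpr173, Gpr85 and Gpr162 to the right on both scales, while Gpr89 and Gpr137 change sides.

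Differences from the plates labelled AtT20 also depended on the scale. In BV2 against AtT20, 47 members passed, where 73.6% of all features did. Of these, 10 were higher in BV2, beside 26.6% of all features, and 37 were lower, beside 47.0%. The same counts were 23 and 12 relative to the seminal proteins and 3 and 52 with no normalization. In N18 against AtT20, 45 passed, where 76.4% of all features did. Of these, 10 were higher in N18, beside 27.8%, and 35 were lower, beside 48.6%, which became 24 and 15 relative to the seminal proteins and 7 and 47 with none. The median difference of the 10 seminal proteins from AtT20-labelled plates was -0.34 for BV2 and -0.42 for N18 after quantile normalization and -1.37 and -1.41 with none. Relative to these proteins, 5 members in BV2 and 3 in N18 passed in the direction opposite to that by quantile normalization, Gpr75 among them in both. Members are therefore named only where they passed on all 3 scales in 1 direction and were called in a compared line.

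By that rule Gpr137b, Gpr107 and Gpr84 were higher in BV2 than on the plates labelled AtT20, of 3 members that passed on all scales as higher in BV2 (background 11.7%). Gpr137b differed by 2.44 ± 0.11 (limma adjusted p = 7.91e-12), at least 1.7-fold, Gpr107 by 1.95 ± 0.11 (2.57e-10), at least 1.8-fold, and Gpr84 by 2.07 ± 0.16 (9.59e-09), at least 2.7-fold. Gpr135 (-1.75 ± 0.11, limma adjusted p = 7.24e-10) and Gpr27 (-1.62 ± 0.12, 4.32e-09) were lower in BV2, of 11 members that passed on all scales in that direction (background 17.2%). Relative to the seminal proteins the difference of Gpr27 was -0.44, and its plates overlapped between the 2 lines.

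In N18, 7 members were higher than on the plates labelled AtT20 by the same rule (background 18.7%). Gpr137b differed by 2.30 ± 0.11 (limma adjusted p = 1.58e-11), at least 2.0-fold, Gpr107 by 1.94 ± 0.11 (2.56e-10), at least 2.1-fold, and Gpr146 by 1.70 ± 0.12 (2.38e-09), at least 1.5-fold. Gpr173 differed by 1.25 ± 0.12 (1.1e-07), at least 1.3-fold, and Gpr85 and Gpr19 by 0.76 and 0.49. Gpr135 (-1.81 ± 0.11, limma adjusted p = 4.19e-10), Gpr27 (-2.03 ± 0.12, 2.71e-10) and Gpr6 (-1.40 ± 0.12, 1.63e-08) were lower in N18, of 14 members that passed on all scales as lower (background 16.0%). These 2 comparisons share the AtT20-labelled plates, so that Gpr107, Gpr137b, Gpr27 and Gpr135 rest on the same 4 arrays in each. Relative to the seminal proteins the third probe of Gpr27 was not lower in BV2 (1.11 ± 0.31) or N18 (1.29 ± 0.17) than on AtT20-labelled plates (0.90 ± 0.38). On that scale Gpr6 was at 0.55 ± 0.25 on AtT20-labelled plates and 0.16 ± 0.19 in N18, and its plates overlapped between these lines. The call of Gpr6 on AtT20-labelled plates was kept in 4 of 8 alternative settings.

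Receptors that once had a Gpr number and were renamed after their ligand were read in the same way. Of 25 measured genes of this list, 9 were called in BV2, 8 in N18 and 4 on AtT20-labelled plates, where 53.3%, 55.4% and 35.0% of all features were. In N18 against BV2, 2 passed as higher, 7 as lower and 16 did not pass, beside 19.0% of all features higher and 21.9% lower. With all 3 scalings 2 were higher and 2 lower. Hcar2, the niacin and ketone body receptor, differed by -1.85 ± 0.12 (limma adjusted p = 1.65e-09), with levels of 1.89, 1.58, 1.36 and 1.52 in BV2 and all N18 plates under the control mean. Ptgdr2, a prostaglandin D2 receptor, differed by -0.87 ± 0.12 (1.56e-05). The prokineticin receptor Prokr1 (0.81 ± 0.11, 9.96e-06) and the kisspeptin receptor Kiss1r (0.41 ± 0.13, 0.0205) were higher in N18. Mchr1, the melanin-concentrating hormone receptor, had -0.56 ± 0.17, which did not pass on the other scales.

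Of 20 genes for G protein alpha subunits, arrestins and receptor kinases, 9, 14 and 16 were called in the lines AtT20, BV2 and N18, beside 35.0%, 53.3% and 55.4% of all features. In N18 against BV2, 7 passed as higher, 3 as lower and 10 did not pass, and with all 3 scalings 7 were higher and 2 lower, beside 18.7% and 7.16% of all features. Gnao1, the alpha subunit abundant in neurons, differed by 1.68 ± 0.14 (limma adjusted p = 3.7e-08), and the alpha subunits Gna12 and Gna13 by 1.36 ± 0.13 and 1.36 ± 0.14. The receptor kinase Grk2 (-1.91 ± 0.12) and the arrestin Arrb2 (-1.76 ± 0.12), which quench active receptors, were higher in BV2. Gnal, the olfactory stimulatory subunit, had -0.41 ± 0.09 and was below the threshold in both lines.

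Promoter windows of RefSeq (build GRCm38.p6) were held for 43 of the 62 members, each with 250 bases before the transcription start and 50 after it. The windows of Gpr65 and Gpr84 are shown for the BV2 side and those of Gpr3, Gpr85 and Gpr173 for the N18 side of the comparison, the members that were called, differed on every scale and have 1 window each. CpG dinucleotides, the letters CG read on 1 strand, which is the same on the other, are in capitals. Gpr65 lies at chr12:98268385-98268684 (+ strand), Gpr84 at chr15:103310389-103310688 (- strand), Gpr3 at chr4:133212487-133212786 (- strand), Gpr85 at chr6:13839893-13840192 (- strand) and Gpr173 at chrX:152368669-152368968 (- strand).
Gpr65: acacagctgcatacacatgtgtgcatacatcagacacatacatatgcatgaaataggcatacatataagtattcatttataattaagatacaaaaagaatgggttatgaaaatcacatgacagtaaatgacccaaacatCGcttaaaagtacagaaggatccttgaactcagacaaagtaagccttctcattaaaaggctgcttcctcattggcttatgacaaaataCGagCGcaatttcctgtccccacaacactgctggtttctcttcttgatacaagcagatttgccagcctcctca
Gpr84: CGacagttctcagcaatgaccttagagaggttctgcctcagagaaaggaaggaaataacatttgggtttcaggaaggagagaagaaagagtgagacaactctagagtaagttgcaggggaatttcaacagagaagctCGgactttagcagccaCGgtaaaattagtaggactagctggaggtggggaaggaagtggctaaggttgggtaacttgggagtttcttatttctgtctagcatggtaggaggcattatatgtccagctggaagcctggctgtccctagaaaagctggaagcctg
Gpr3: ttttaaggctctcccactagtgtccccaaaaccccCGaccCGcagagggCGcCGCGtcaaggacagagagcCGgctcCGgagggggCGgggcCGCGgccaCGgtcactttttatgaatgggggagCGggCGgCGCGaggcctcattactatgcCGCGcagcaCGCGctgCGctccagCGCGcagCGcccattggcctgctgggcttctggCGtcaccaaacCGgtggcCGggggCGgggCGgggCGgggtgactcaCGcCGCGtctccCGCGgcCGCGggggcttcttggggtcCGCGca
Gpr85: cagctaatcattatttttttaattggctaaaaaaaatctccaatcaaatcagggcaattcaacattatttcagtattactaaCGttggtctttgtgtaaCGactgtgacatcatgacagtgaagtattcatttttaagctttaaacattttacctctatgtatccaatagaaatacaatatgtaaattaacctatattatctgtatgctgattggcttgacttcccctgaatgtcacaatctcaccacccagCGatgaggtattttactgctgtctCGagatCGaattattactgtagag
Gpr173: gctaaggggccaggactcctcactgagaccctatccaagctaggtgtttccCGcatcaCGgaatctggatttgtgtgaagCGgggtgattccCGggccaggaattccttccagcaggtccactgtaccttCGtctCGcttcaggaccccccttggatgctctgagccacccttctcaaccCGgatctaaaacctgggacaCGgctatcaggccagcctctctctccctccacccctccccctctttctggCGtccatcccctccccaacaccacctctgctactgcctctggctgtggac

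The windows of Gpr65 and Gpr84 held 3 CpG each, and 31.4% of the 32851 windows in the table held at most 3. Gpr85, higher in N18, held 5, and 43.6% of windows held at most 5. Gpr173 held 9, and 45.8% of windows held at least 9. Gpr3 held 38, and 5.0% of windows held at least 38. Taken per gene as the mean over its windows, the 3 members called only in BV2 had 2.0 to 3.0 CpG, the 5 members with a window called only in N18 had 9.0 to 38.5, and the 7 called in BV2 and N18 had 3.0 to 20.0. The means of the first 2 sets did not overlap, but single windows did, with 2 to 24 CpG over the windows of Gpr19 and 0 to 6 over those of Gpr35. The 20 members with a window that were called in no line ran from 2.0 to 29.0, with a median of 7.0 that was also the median of all 27025 genes in the table. Neither methylation nor binding at these windows was measured.

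**Figure D4:**
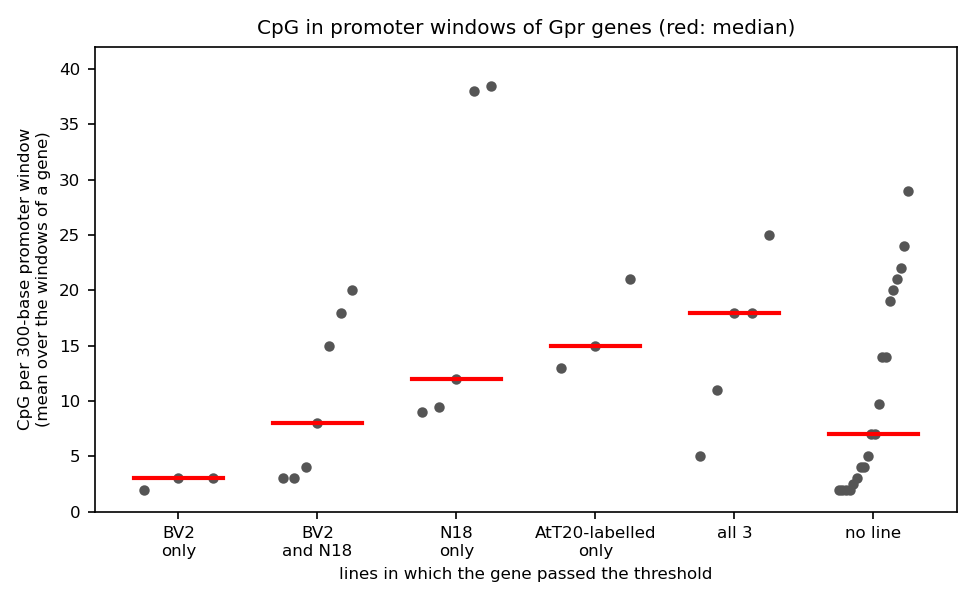
CpG count per 300-base promoter window, as the mean over the windows of a gene, for members grouped by the lines in which they were called, with 1 dot per gene and a red line for the median. The 3 genes called only in BV2 lie at or below 3.0 and the 5 called only in N18 at or above 9.0, and the 20 genes called in no line span both ranges.

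Neighbouring members on a chromosome, in pairs less than 100 kb apart, were Gpr18 and Gpr183, Gpr34 and Gpr82, and Gpr141 and Gpr141b. None of these 6 genes was called in any line, which also held for 33 of all 62 members. Whether neighbours were uncalled more often than other members was not tested. Some calls lay close to the threshold. On the plates labelled AtT20 Gpr83 (0.35) lay just below it, and Gpr75 (0.40) and Gpr6 (0.55) were the nearest above it. In BV2 Gpr83 (0.56) and Gpr158 (0.55) lay below, and Gpr27 (0.63) and Gpr1 (0.64) above. In N18 Gpr182 (0.67) and Gpr158 (0.66) lay below, and Gpr20 (0.76) and Gpr119 (0.91) above. Without BV2 plate 1 the level of Gpr27 was 0.54 against a threshold of 0.56. Without N18 plate 3 that of Gpr20 was 0.77, and the threshold also rounded to 0.77. Each gene was then no longer called.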

How the data were processed

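The deposited values were log2 Cy3 intensities of NimbleGen arrays with 3 probes per transcript, which the authors extracted with NimbleScan and put on the log2 scale. Medians and spreads differed between arrays, so no normalization between arrays was evident, and background correction was not given in the sources used here. 72000 probes belonged to 25631 targets, of which 69.4% matched a RefSeq symbol, and targets of 1 gene were averaged. The detection rule was that of the study's methods. limma 3.58.1 (lmFit and eBayes with a trend, R 4.3.3) compared lines on quantile-normalized log2 values at an adjusted p of 0.05, and was tested on simulated data. Fold bounds ("at least") set the dim line at its threshold and took the smallest value over the 3 scales. Named were all members called in a line, those with a log2 difference of at least 1 in N18 against BV2, those nearest the threshold, the uncalled members of small lists, and, of the renamed receptor and G protein lists, the 3 that differed most each way. Members and lists were chosen with earlier results of these data known. The 4 arrays per line limit the precision. Alternatives covered probe summary, controls, threshold, normalization, arrays in the fit and each plate left out. The HEK293 and PCR measurements were not used here, and a few genes that enter the counts are not reported singly.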

Additional observations from a re-analysis of the deposited data

How the results depend on the processing

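Of the levels of called members, 560 alternative values kept their side of the threshold, 63 fell below it and 1 changed sign, the median of the probes giving -0.11 for Gpr182 in AtT20. Of the differences named for called members (with AtT20, only those that passed on all 3 scales), 586 kept their call, 30 lost it, 7 gained it and 3 turned, Gpr89 in N18 against BV2 to 0.04 with no normalization and 0.07 relative to the seminal proteins, and Gpr137 to 0.02 on the latter scale. With olfactory receptor genes as controls, 5, 10 and 13 members were called in AtT20, BV2 and N18. Without the highest seminal protein AtT20 had 18, and with at least 2 probes above the threshold, chosen after seeing the data, 7. Leaving out 1 plate gave 11 to 15, 17 to 22 and 20 to 21. Relative to the seminal proteins, 19 members were higher in N18 than BV2, 23 in BV2 than AtT20 (12 lower) and 24 in N18 than AtT20 (15 lower). With no normalization 14 were higher and 6 lower in N18 than BV2, and 3 higher in BV2 than AtT20. Testing only genes above the threshold, which are fewer, gave 10, 11 and 9 lower for N18 against BV2, BV2 against AtT20 and N18 against AtT20, and only the 8 arrays of the pair gave 25 lower in N18 than BV2. Leaving out 1 plate gave 8 higher and 12 to 14 lower for N18 against BV2, 9 to 13 and 33 to 39 for BV2 against AtT20, and 9 to 11 and 31 to 37 for N18 against AtT20. Deviations of plates with the same number had correlations from -0.11 to 0.32, the highest for plate 2 of N18 and BV2. The main fit left the plates unpaired. With the replicate number as a block the counts were 9 and 16, 11 and 36, and 9 and 34. The causes of these shifts were not tested.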
